A study of Rattus norvegicus with 13 samples.

Results

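Vascular growth factors, the receptors that bind them and genes of the endothelium were followed across rat tumours of the bile ducts (cholangiocarcinoma) and across cell lines derived from them. The list names 38 genes by what they encode. Of the 38, 36 were measured among 14217 genes in all, each represented by its brightest probe set on average over the 13 arrays. Cdh5 and Robo4 were not analysed here.

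VEGF ligands are secreted by tumour and stromal cells and act on receptor tyrosine kinases of endothelial cells, with the neuropilins as co-receptors. Vegfa acts mainly through Kdr and drives the growth of blood vessels, while Vegfc acts mainly through Flt4 and drives the growth of lymphatic vessels. Angpt1 and Angpt2 are ligands of the receptor Tek, Angpt1 stabilising vessels and Angpt2 being released by activated endothelium. Cholangiocarcinoma is known for a dense stroma of fibroblasts, and the liver around it holds a sinusoidal endothelium that carries the scavenger receptors Stab1 and Stab2 and the hyaluronan receptor Lyve1.

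RNA from 5 groups was hybridised to single-colour Affymetrix arrays. The tumours (n = 4) were snap-frozen intrahepatic cholangiocarcinomas of young adult male Fischer 344 rats, which had formed after BDEsp cells were placed in the bile duct. BDEsp cells are BDE1 cholangiocytes that transformed spontaneously, and no gene modification or drug is given for any group. From such tumours came an epithelial cancer line, BDEsp-TDEH10 (n = 3), and a fibroblastic line positive for alpha-SMA, BDEsp-TDFE4 (n = 4), and each is a single clone. Both were grown inside a gel of type I collagen from rat tail. The lines were also grown together there, and 1 array each was labelled as the epithelial and as the fibroblastic cells of such a co-culture. The labels do not say whether replicate arrays came from separate cultures, so the spread behind each p-value is that between these arrays and may be technical.

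The lines carried the markers of their labels, and each co-culture array carried those of both lines. The array labelled as fibroblastic cells from co-culture had 13.21 on the log2 scale for the keratin Krt19, against 4.01 to 4.29 in the fibroblastic line alone, and the array labelled as epithelial had 13.37 for the collagen Col1a2, against 3.70 to 4.63 in the epithelial line alone. Over 10 epithelial genes the mean was 11.51 in the array labelled epithelial and 11.3 in the array labelled fibroblastic. Over 12 fibroblast genes it was 9.46 and 9.76, below the 11.15 to 11.3 of the fibroblastic line alone. Across all genes the 2 co-culture arrays correlated at 0.983 with each other and at 0.86 to 0.902 with the arrays of either line alone. They are therefore called by their labels, and each is compared with both lines. Among the fibroblastic arrays, 1 and 3 correlated at 0.987 and 2 and 4 at 0.99, against 0.947 to 0.961 across these pairs. The tumours had macrophage genes at a mean of 9.91 to 10.32 against 5.06 to 5.79 in the 9 culture arrays, lymphocyte genes at 6.73 to 7.12 against 4.51 to 5.02, and hepatocyte genes at 5.56 in tumour 2 and 11.44 to 13.15 in the others. The 3′ minus 5′ difference of the beta-actin control probe sets, a sign of RNA integrity, was 0.61 to 0.75 in the tumours, 0.86 to 1.47 in epithelial arrays and 1.05 to 2.65 in fibroblastic ones, and its part in the results was not tested.

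**Figure D1:**
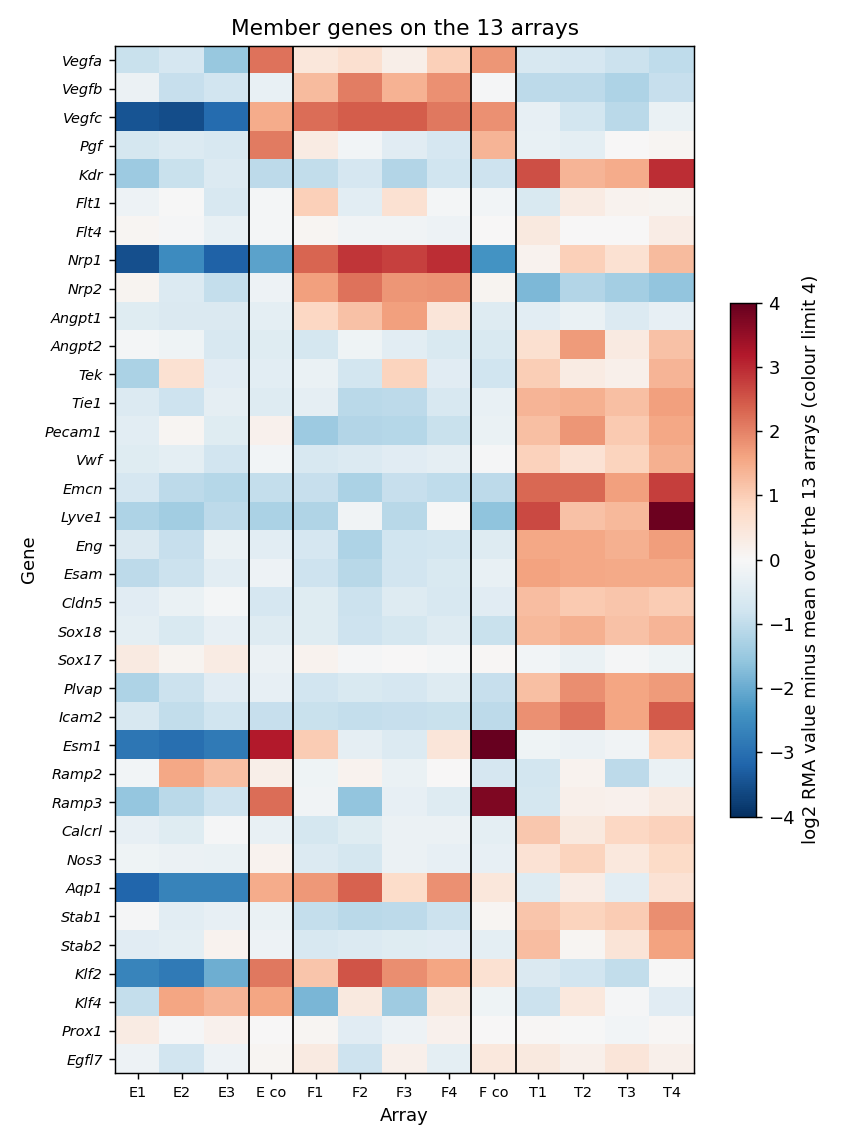
Each cell shows a gene's log2 RMA value on 1 array minus its mean over the 13 arrays, with the epithelial line (E1 to E3), the array labelled epithelial co-culture (E co), the fibroblastic line (F1 to F4), the array labelled fibroblastic co-culture (F co) and the tumours (T1 to T4). The endothelial genes from Tie1 to Sox18 and Plvap and Icam2 are high in all 4 tumours, Vegfc, Nrp1, Aqp1 and Klf2 are high in the fibroblastic line, and Esm1 and Ramp3 are highest in the co-culture arrays.

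Between the lines grown alone, the VEGF ligands Vegfa, Vegfb and Vegfc and the co-receptors Nrp1 and Nrp2 were all higher in the fibroblastic line. Vegfc and Nrp1 had the largest measured differences in the list, 50.5-fold and 55.5-fold, over epithelial values too low to be told apart from background. Of the 36 genes, 11 passed the test (limma, adjusted p under 0.05 over all genes), 2 higher in the epithelial line and 9 higher in the fibroblastic line. Over all genes 37.4% passed, 20.9% higher and 16.6% lower in the epithelial line, so the share of the list is near that of the array. Its median log2 difference, epithelial minus fibroblastic, was -0.02, and that of all genes was 0.11.

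Vegfc, the lymphatic growth factor, read 4.77, 4.67 and 5.13 in the 3 epithelial arrays and 10.46, 10.63, 10.64 and 10.33 in the 4 fibroblastic arrays. The groups were far apart, with a log2 difference of -5.66 ± 0.17 (SE) and a limma adjusted p of 1.74e-07. Nrp1, the co-receptor for Vegfa and class 3 semaphorins, read 3.43, 4.44 and 3.71 in the epithelial line and 9.27, 9.80, 9.67 and 9.89 in the fibroblastic line (difference -5.80 ± 0.27, limma adjusted p = 1.57e-06). The epithelial values of both genes lie near the values of genes of tissues that were not sampled, such as photoreceptor and sperm genes, which had a median of 5.14 and reached 7.35 on these arrays. RMA gives no detection call, so these low values cannot be told apart from background. Wherever a group lies in this range, a fold over it is a ratio of measured values and its size is uncertain.

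Vegfa, the main angiogenic ligand, was present in both lines and higher in the fibroblastic one. It read 9.14, 9.38 and 8.54 in the epithelial line and 10.5, 10.69, 10.29 and 11.01 in the fibroblastic line, with no overlap (difference -1.60 ± 0.25, limma adjusted p = 0.00156). Its second probe set gave -0.17 between the lines, with an adjusted p of 0.474, so the difference rests on the brighter probe set. Vegfb, a ligand of Flt1, averaged 7.58 ± 0.36 (SD, n = 3) in the epithelial line and 9.84 ± 0.37 (n = 4) in the fibroblastic line, a 4.78-fold difference (limma adjusted p = 0.000268). Pgf, placental growth factor, which also binds Flt1, did not pass, at 6.23 to 6.38 and 6.25 to 7.24.

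Angpt1 was low in both lines, at 3.51 to 3.6 in epithelial and 4.58 to 5.75 in fibroblastic arrays, and was 2.99-fold higher in the latter (limma adjusted p = 0.0023). Angpt2 did not pass, at 4.07 to 4.61 and 3.99 to 4.54. Nrp2, the co-receptor for Vegfc, read 9.32, 8.68 and 8.27 against 10.85, 11.39, 11 and 11.03 and was 4.96-fold higher in the fibroblastic line, while its second probe set read 4.01 to 4.68 in the lines and was not called. Kdr, Flt1 and Flt4, the receptor tyrosine kinases for VEGF ligands, did not pass, with differences of -0.05, -0.55 and 0.01. With fibroblastic arrays 1 and 3 alone, Flt1 was lower in the epithelial line by the test (-1.07, limma adjusted p = 0.0158).

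**Figure D2:**
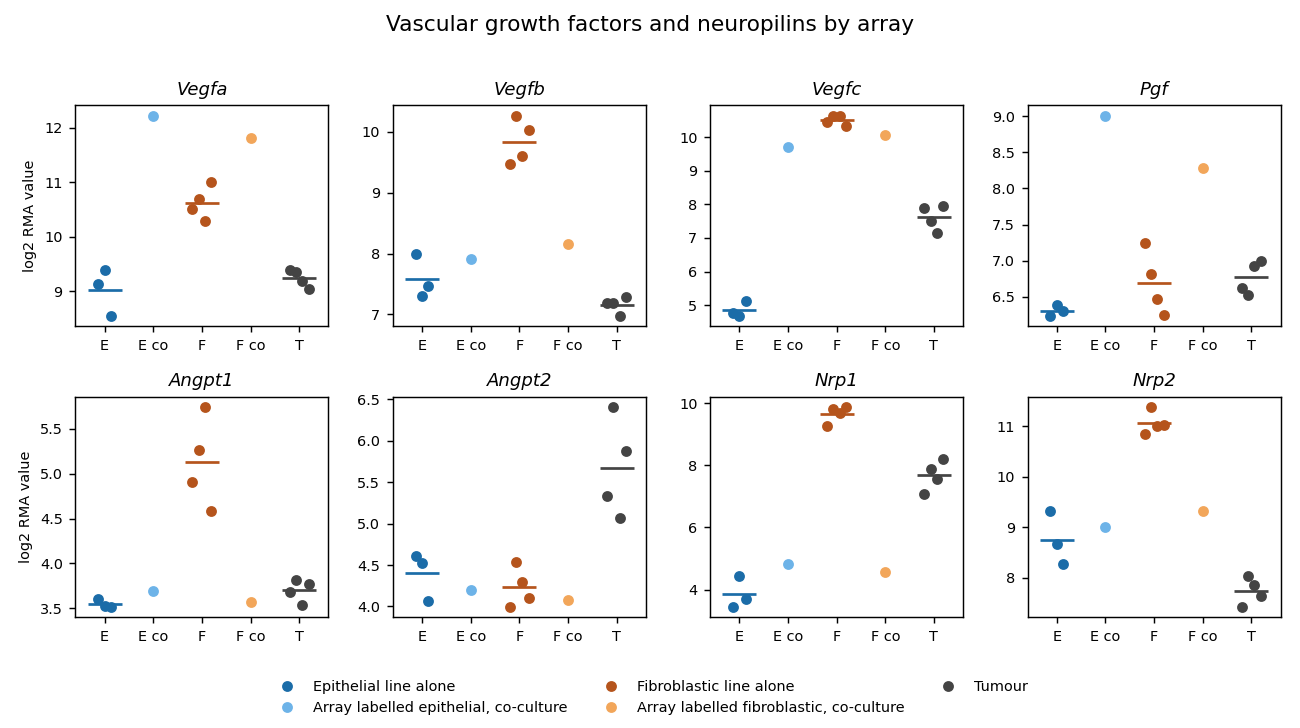
Points are log2 RMA values of single arrays for ligands and co-receptors, with horizontal lines at group means, for the epithelial line (E), the fibroblastic line (F), the arrays labelled as co-cultures (E co, F co) and the tumours (T). Vegfc and Nrp1 are far higher in the fibroblastic line, with epithelial values that cannot be told apart from background, and Vegfa and Pgf are highest in the co-culture arrays.

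Aqp1, a water channel of endothelium and bile duct epithelium, and Klf2, a transcription factor induced by flow in endothelium, were also higher in the fibroblastic line. Aqp1 read 5.07, 5.55 and 5.57 in the epithelial line and 9.96, 10.60, 8.96 and 10.06 in the fibroblastic line, a 22.6-fold difference (limma adjusted p = 3.69e-05). Klf2 read 5.87, 5.69 and 6.58 against 9.63, 11.04, 10.39 and 10.09, an 18.9-fold difference (adjusted p = 4.56e-05), and of its 4 other probe sets 1 gave a difference of -3.64 and 3 gave differences between -0.28 and 0.13. Esm1, a proteoglycan secreted by endothelial tip cells, averaged 3.79 ± 0.09 (n = 3) and 6.85 ± 0.74 (n = 4), an 8.34-fold difference (adjusted p = 0.000397). Pecam1 and Stab1 were the 2 genes higher in the epithelial line, by 1.86-fold and 1.64-fold, with values of 5.37 to 5.94 and 4.64 to 5.04 there and 4.41 to 4.96 and 4.0 to 4.22 in the fibroblastic line. These levels too lie within the range of the genes of tissues not sampled.

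The genes that define endothelium had values in this low range in both lines. Emcn and Icam2, both surface glycoproteins of endothelium, ranged from 3.81 to 4.40 and from 4.25 to 4.57 over the 7 arrays of the lines alone. Kdr ranged from 3.5 to 4.41, Tie1 from 3.81 to 4.54 and Cldn5, a tight junction protein of endothelium, from 3.98 to 4.76. Klf4, Ramp2 and in part Egfl7 were exceptions to this low level, as were Aqp1 and Klf2 in the fibroblastic line. Single fibroblastic arrays of Esm1 (up to 7.73) and Flt1 (up to 7.48) also lay above it. Egfl7 read 6.90 to 7.46 in the epithelial and 6.82 to 8.00 in the fibroblastic line, where the low range ends at 7.35. Klf4, a transcription factor of many epithelia as well as endothelium, read 9.52, 12.06 and 11.84 in the epithelial line and 8.65, 10.87, 9.07 and 10.87 in the fibroblastic line, and Ramp2, the partner that turns Calcrl into an adrenomedullin receptor, read 9.08, 10.75 and 10.38 against 9.02, 9.32, 8.93 and 9.21. Klf4, Ramp2 and Egfl7 did not pass the test between the lines, while Aqp1, Klf2 and Esm1 did, as given above. Without epithelial array 1, Ramp2 was higher in the epithelial line by 1.45 (limma adjusted p = 0.00159).

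In co-culture 4 genes were above both lines grown alone. Esm1, Ramp3, Pgf and Vegfa were called above each line in the array labelled epithelial, and Esm1, Ramp3 and Pgf in the array labelled fibroblastic. Over all genes, 0.935% and 0.964% were called above both lines in these arrays. No member was called below both lines, where 0.366% and 0.162% of all genes were. Against the other line alone, 11% of all genes were called in the array labelled epithelial and 7.64% in the array labelled fibroblastic.

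Esm1 was 9.86 in the array labelled epithelial and 11.39 in the array labelled fibroblastic, against 3.80, 3.70 and 3.88 in the epithelial line and 7.73, 6.33, 6.16 and 7.19 in the fibroblastic line. The first was 67.4-fold above the epithelial line (limma adjusted p = 0.00042) and 8.08-fold above the fibroblastic line (0.0107). The second was 23.3-fold above the fibroblastic line (limma adjusted p = 0.00195) and 194-fold above the epithelial line (0.000106). Esm1 in the epithelial line lies in the background range, so the 67.4-fold and 194-fold are ratios over a level that was not resolved. Both arrays were thus above every array of either line. Because each co-culture group is 1 array, the test assumes that it varies like the other groups.

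Ramp3, which like Ramp2 pairs with Calcrl to form an adrenomedullin receptor, was 8.05 and 9.55 in the arrays labelled epithelial and fibroblastic, and 4.23 to 5.67 in the 7 arrays of the lines alone. The fold differences from the line of the same name were 10.6 and 20.7 (limma adjusted p = 0.00744 and 0.0019). Its partner Calcrl read 4.46 and 4.38, within the 4.08 to 4.72 of the lines, and Ramp2 read 9.42 and 8.52.

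Vegfa was 12.22 and 11.81 in the 2 co-culture arrays, above the highest value of either line alone, 11.01. Against the epithelial line the array labelled epithelial was 9.21-fold higher (limma adjusted p = 0.0017), and against the fibroblastic line 3.03-fold higher (0.0288). The array labelled fibroblastic was 2.29-fold above the fibroblastic line, which did not pass (limma adjusted p = 0.0966), and 6.95-fold above the epithelial line (0.00315). With the second Vegfa probe set, the rise over the line of the same name was 2.26 and 1.62 on the log2 scale, and both passed. Leaving out fibroblastic array 1 ended the call of Vegfa above both lines in the array labelled epithelial.

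Pgf was 9.01 and 8.28, against 6.23 to 7.24 in the lines alone. The array labelled epithelial was 6.54-fold above the epithelial line (limma adjusted p = 0.00315) and 4.98-fold above the fibroblastic line (0.00475). The array labelled fibroblastic was 2.99-fold above the fibroblastic line (limma adjusted p = 0.0296) and 3.93-fold above the epithelial line (0.0134). The call against the fibroblastic line was lost when epithelial array 2, epithelial array 3 or fibroblastic array 3 was left out, with adjusted p up to 0.0549. Counting single values, 6 of the 36 genes had both co-culture arrays above all 7 arrays of the lines alone, against 5.8% of all genes. They were these 4 and the endothelial genes Vwf and Esam, whose co-culture values of 5.54 and 5.61 and of 6.57 and 6.48 were under the lowest tumour values.

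**Figure D3:**
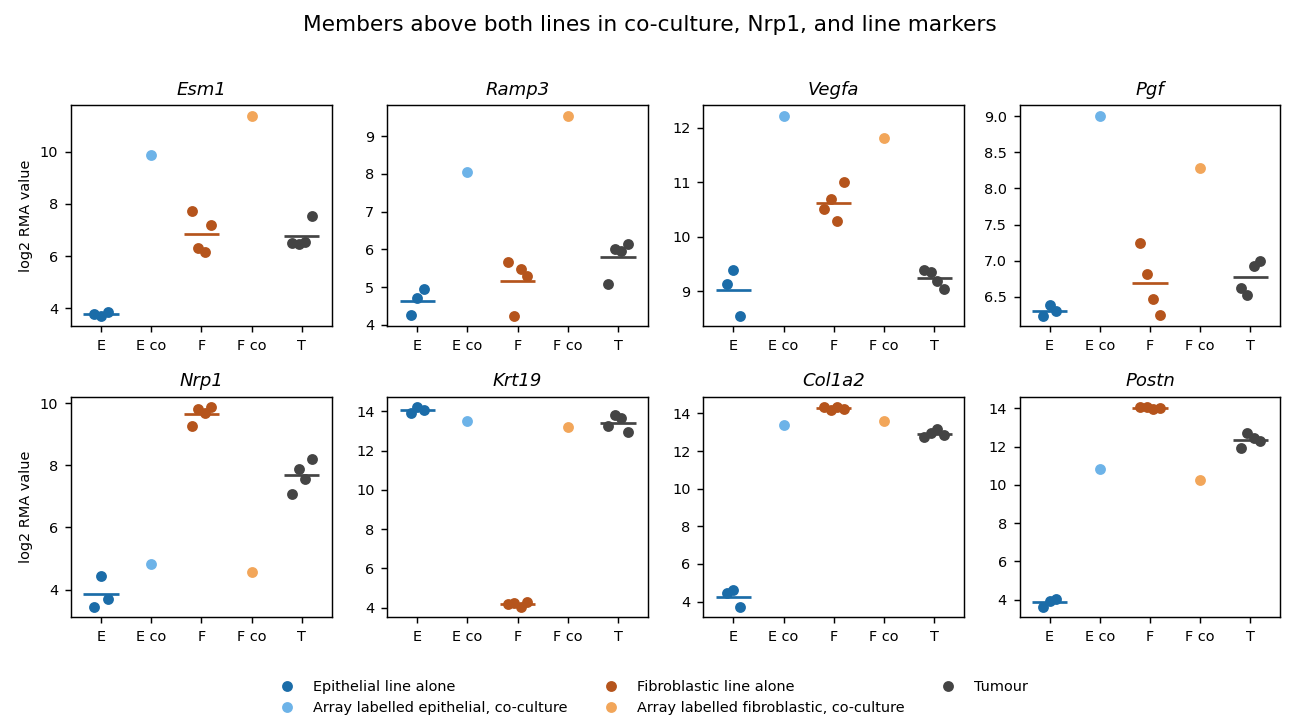
Points are log2 RMA values of single arrays, with lines at group means, for the 4 genes above both lines in co-culture, for Nrp1, and for the keratin Krt19 and the fibroblast genes Col1a2 and Postn. Both co-culture arrays lie above every array of the lines alone for Esm1, Ramp3, Vegfa and Pgf, while Nrp1 is at the level of the epithelial line, Col1a2 is near that of the fibroblastic line and Postn is 10.83 and 10.26 against 14.05.

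The windows 250 bases upstream of the annotated start of these 4 genes are shown because the genes rose together in co-culture. RefSeq promoters (GRCr8) were found for 24 of the 36 genes. Capitals mark matches on either strand to GCGTG, a core of the hypoxia response element, and to GGGCGG, the GC box. ACGTG, the other core of that element, and TGANTCA, the AP-1 site, were searched in the same way and not found in these windows. Vegfa has another annotated start, not shown, whose window holds none of the 4 motifs.
Vegfa, chr9:22452604-22452853, plus strand: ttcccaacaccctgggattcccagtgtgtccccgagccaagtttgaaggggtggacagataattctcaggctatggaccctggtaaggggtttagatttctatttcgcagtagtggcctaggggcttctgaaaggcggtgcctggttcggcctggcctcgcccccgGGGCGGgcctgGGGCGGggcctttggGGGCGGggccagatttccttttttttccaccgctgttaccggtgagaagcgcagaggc
Pgf, chr6:110557748-110557997, minus strand: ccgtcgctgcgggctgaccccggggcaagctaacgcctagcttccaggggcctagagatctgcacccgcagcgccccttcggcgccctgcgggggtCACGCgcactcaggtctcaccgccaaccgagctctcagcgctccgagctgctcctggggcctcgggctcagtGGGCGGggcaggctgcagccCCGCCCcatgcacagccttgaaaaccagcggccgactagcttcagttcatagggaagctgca
Esm1, chr2:46609003-46609252, plus strand: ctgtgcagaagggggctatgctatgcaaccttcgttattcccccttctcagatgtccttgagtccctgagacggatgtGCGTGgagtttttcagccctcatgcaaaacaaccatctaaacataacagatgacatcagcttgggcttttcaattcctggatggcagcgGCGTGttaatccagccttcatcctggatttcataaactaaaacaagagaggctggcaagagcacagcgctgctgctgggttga
Ramp3, chr14:85741064-85741313, plus strand: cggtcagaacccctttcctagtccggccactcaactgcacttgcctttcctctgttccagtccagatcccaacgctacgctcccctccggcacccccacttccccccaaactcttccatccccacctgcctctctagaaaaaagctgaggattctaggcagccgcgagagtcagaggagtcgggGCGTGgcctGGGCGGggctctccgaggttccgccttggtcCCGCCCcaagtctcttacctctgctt
Esm1 holds GCGTG 2 times, Pgf and Ramp3 hold it 1 time each, and the Vegfa window does not hold it. GGGCGG occurs 3 times before Vegfa, 2 times before Pgf and before Ramp3, and not before Esm1. Of 33469 windows of the same length, 25.9% hold GCGTG, 30.5% GGGCGG, 16.6% ACGTG and 6.34% TGANTCA. These matches describe letters only, and no binding was measured.

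Against the line named in its label, the array labelled epithelial had 7 of the 36 genes called higher and none lower, where 7.24% of all genes were called, 4.87% higher and 2.37% lower. Besides the 4 genes above both lines, these were Vegfc at 9.69 (28.6-fold, limma adjusted p = 2.46e-05), Aqp1 at 9.72 (20.1-fold, 0.00248) and Klf2 at 10.63 (23.9-fold, 0.00161). None of these 3 passed against the fibroblastic line, where the differences were -0.82, -0.17 and 0.34. All 3 are genes in which the fibroblastic line exceeds the epithelial line, and the array also carries fibroblast markers. A change within epithelial cells and RNA of fibroblasts cannot be told apart here. The test of the difference between the 2 responses, called in 8.43% of all genes, called these 3 genes and Nrp1. Another Klf2 probe set rose by 4.37 over the epithelial line, while the other 3 were not called (0.24, 0.06 and 0.46). The second Aqp1 probe set rose by 1.67 (limma adjusted p = 0.00557). The size of both rises thus depends on the probe set.

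The array labelled fibroblastic had 4 genes called higher than the fibroblastic line alone and 4 lower, against 4.78% and 3.63% of all genes, 8.41% in all. The higher ones were Esm1, Ramp3, Pgf and Stab1. Stab1 read 5.16 against 4.0 to 4.22 (limma adjusted p = 0.023), a call that ended in a single fit of all 13 arrays (0.0527). In the epithelial line Stab1 read 4.64 to 5.04, and the array was not called against it (0.35, limma adjusted p = 0.447). All these Stab1 values lie in the background range. For Stab1 a change within fibroblasts and RNA of epithelial cells cannot be told apart here. The lower ones were Nrp1, Nrp2, Vegfb and Angpt1. Nrp1 read 4.57 against 9.27 to 9.89, a 34.1-fold difference (limma adjusted p = 0.000218), and the same array had Col1a2 at 13.6, Fn1 at 13.74 and Thy1 at 11.07, close to the 14.27, 13.71 and 10.87 of the fibroblastic line. These 3 were chosen after their values were seen, and of the 12 fibroblast genes 4 were called lower in this array than in the fibroblastic line and none higher, with a median difference of -1.05. In the array labelled epithelial Nrp1 was 4.82, which was 28.5-fold below the fibroblastic line (limma adjusted p = 0.000241) and not called against the epithelial line. The other 3 lower genes were at the level of the epithelial line in both co-culture arrays, with Nrp2 at 9.01 and 9.32, Vegfb at 7.91 and 8.16 and Angpt1 at 3.69 and 3.57. Among fibroblast genes, Postn was 10.83 and 10.26 in the arrays labelled epithelial and fibroblastic against 14.05 in the fibroblastic line, Tagln 7.82 and 9.91 against 13.36, Acta2 7.56 and 9.06 against 10.94, and Pdgfrb 8.07 and 8.00 against 10.6. The part of a smaller share of fibroblast RNA in the 4 lower calls was not tested.

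Of these 4 lower calls, that of Nrp1 held without each array in turn. That of Angpt1 (limma adjusted p = 0.0478) ended in 5 of the fits that left out an array, with p up to 0.0882. That of Vegfb (0.031) was lost when fibroblastic array 4 or epithelial array 3 was left out, at up to 0.0667. That of Nrp2 (0.0284) ended without fibroblastic array 4 (0.0591), with fibroblastic arrays 1 and 3 alone (0.0617) and with the mean of its probe sets (0.138).

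In the tumours many, but not all, genes of the endothelium were higher than in either line. Of the 36 genes, 17 were called above both lines, against 12% of all genes, and 1 was called below both, Nrp2, against 17.9%. Against the epithelial line 24 were higher and 3 lower, where 52.1% of all genes were called, 18.9% higher and 33.2% lower, and the median log2 difference of the list was 1.32 against -0.17 for all genes. Against the fibroblastic line 17 were higher and 8 lower, where 60.9% of all genes were called, 27.3% higher and 33.5% lower, with medians of 0.75 and -0.07. With the lowest 0.25 of all genes by mean value left out, 20 of the 36 remained. Of these, 11 were higher and 2 lower against the epithelial line. Against the fibroblastic line 4 were higher and 7 lower, and 4 were above both lines. The percentages given here are for all 14217 genes and do not apply to these filtered counts. Of the 36 genes, 16 had every tumour above all 9 culture arrays, which holds for 10.3% of all genes. All 16 are among the 17 called above both lines, which the same values chose, and the exception was Stab2. Centring each array on its median moved the median difference of all genes by 0.20 and 0.19 and the share of higher genes among those called from 36.2% to 52.2% and from 44.9% to 57.1%. It left 27 of the list higher and 2 lower against the epithelial line, and 19 and 8 against the fibroblastic line. In whole tissue a larger number of endothelial cells and more RNA per cell cannot be told apart. Macrophage, lymphocyte and hepatocyte genes were also higher in the tumours, and the part of those cells in these calls was not tested.

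**Figure D4:**
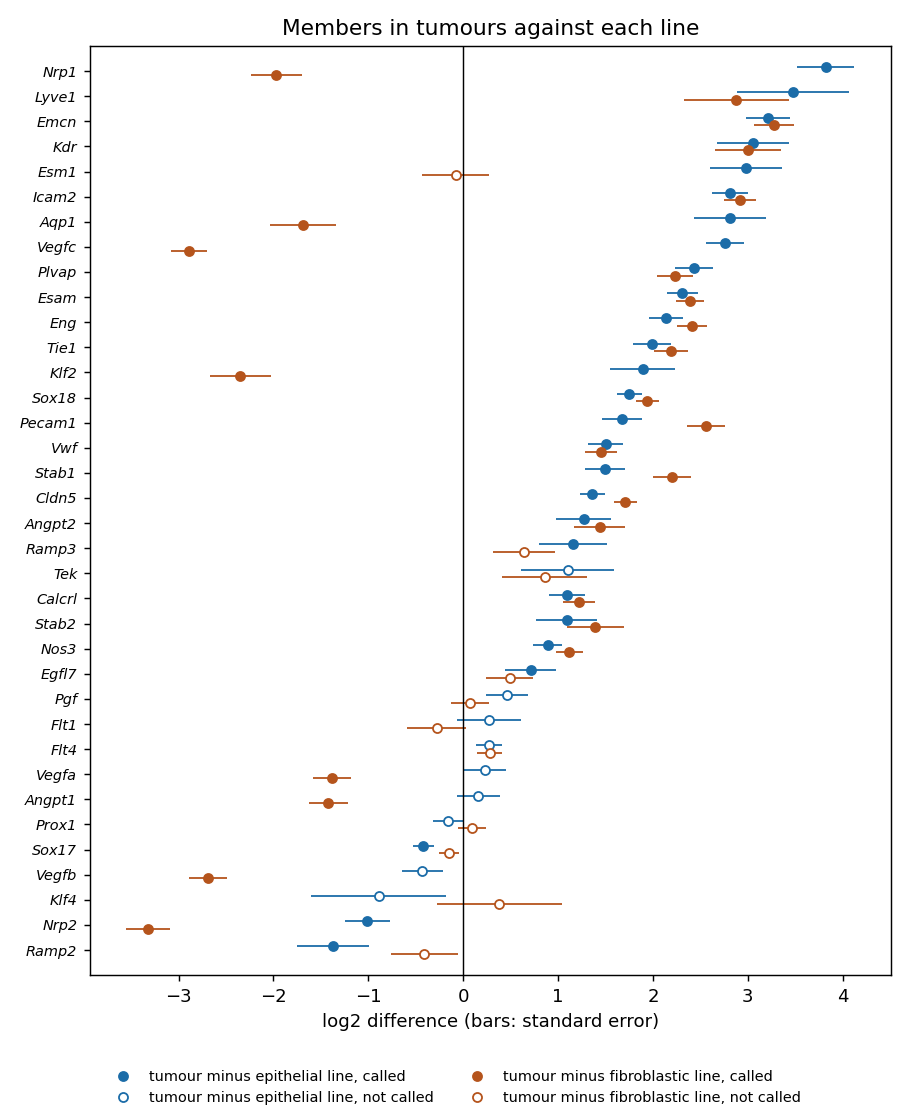
Log2 differences of the 36 genes in the 4 tumours against the epithelial line (blue) and the fibroblastic line (orange), with bars for the standard error and filled points for genes called by limma. In all, 17 genes lie to the right of 0 with both points filled, while Nrp1, Vegfc, Aqp1 and Klf2 lie above the epithelial line and below the fibroblastic line.

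Among receptors, Kdr, through which Vegfa mainly acts, read 7.53, 6.31, 6.44 and 7.90 in tumours 1 to 4, and 3.5 to 4.41 in the lines alone. No tumour overlapped a culture, and the differences were 3.05 ± 0.38 from the epithelial line (limma adjusted p = 0.000122) and 3.00 ± 0.35 from the fibroblastic line (3.7e-05). Tie1, an orphan receptor that modulates Tek, read 6.25, 6.34, 6.12 and 6.55 and was 3.96-fold and 4.57-fold above the lines. Tek itself did not pass, at 6.89, 6.23, 6.10 and 7.26 against 4.64 to 6.78 in the lines, where epithelial array 2 and fibroblastic array 3 overlapped the tumours. Without fibroblastic array 3 it passed against both lines.

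Flt1, Flt4 and Prox1 did not pass against either line on the probe sets used. Flt4, the receptor for Vegfc on lymphatic endothelium, read 6.08 to 6.46 in the tumours and 5.78 to 6.15 in the lines, and passed against both only after centring (0.47 against each, limma adjusted p = 0.0154 and 0.00736). Prox1, the transcription factor that sets lymphatic identity, read 4.91 to 5.07 in the tumours and 4.56 to 5.35 in the lines, but its second probe set, with 4.54 to 6.82 in the tumours and 4.44 to 4.69 in the lines, was 1.25 and 1.24 higher (limma adjusted p = 0.0307 and 0.0184). Flt1, the receptor for Vegfb and Pgf, was likewise called by another probe set, by 1.47 and 1.12 (adjusted p = 0.00252 and 0.0054). For Sox17, a transcription factor of arterial endothelium, the probe set used fell in tumours against the epithelial line (-0.42, adjusted p = 0.0116), a call that ended after centring, and another was higher than in each line by 1.62. For Flt1, Prox1 and Sox17 the answer depends on the probe set.

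The surface and junction genes of endothelium were called above both lines in the tumours. Emcn read 7.38, 7.36, 6.73 and 7.84 in the tumours and was 9.25-fold above the epithelial line (limma adjusted p = 3.21e-06) and 9.7-fold above the fibroblastic line, both over line values in the background range. Icam2, a ligand for leukocyte integrins, read 7.06, 7.38, 6.80 and 7.68 and was 7.04-fold and 7.57-fold higher, over line values in that range too. Plvap, which forms the diaphragms of fenestrated capillaries, read 7.68, 8.35, 8.06 and 8.19 against 5.23 to 6.04 in the lines. Each of these genes separated the tumours from every culture.

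Eng, a co-receptor for TGF-beta of proliferating endothelium, and Esam, an adhesion molecule of its junctions, were among the most even over the tumours. Eng read 8.33, 8.34, 8.22 and 8.47 and was 4.4-fold and 5.33-fold above the lines, and Esam read 8.40, 8.33, 8.29 and 8.29 and was 4.96-fold and 5.22-fold above them. Pecam1, an adhesion molecule that leukocytes and platelets also carry, read 7.07, 7.63, 6.90 and 7.39 and was 3.17-fold and 5.9-fold higher. Cldn5 averaged 5.94 ± 0.09 (SD, n = 4) in the tumours, Sox18, a transcription factor of endothelium, 6.76 ± 0.10, and Vwf, the clotting factor stored in endothelial cells, 6.59 ± 0.35. Calcrl rose by 1.09 and 1.22, and Nos3, the endothelial nitric oxide synthase, by 0.89 and 1.12. The smallest of these differences are near those of 5 genes of tissues not sampled that were also called above both lines, by 0.41 to 1.1 and 0.48 to 1.51. Of those 26 genes, the tumours had 6 called above the epithelial line and 13 above the fibroblastic line.

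The scavenger and hyaluronan receptors of sinusoidal and lymphatic endothelium were also called higher. Lyve1 read 7.98, 6.53, 6.66 and 9.26 in the tumours and 3.95 to 5.34 in the lines, 11.2-fold above the epithelial and 7.34-fold above the fibroblastic line (limma adjusted p = 0.000809 and 0.00108), with the lines in the background range. Stab1, which tissue macrophages also express, read 6.18, 5.97, 6.09 and 6.93. Stab2 read 6.72, 5.54, 5.98 and 7.10 against 4.84 to 5.63, so that tumour 2 overlapped the cultures. The call of Stab2 against the epithelial line (limma adjusted p = 0.0158) was lost when epithelial array 1 or 2 was left out, at up to 0.0598.

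Of the ligands, on the probe sets used, Angpt2 was called above both lines in the tumours, and Vegfa, Vegfb, Vegfc, Pgf and Angpt1 were not. Vegfa read 9.39, 9.36, 9.18 and 9.04 in the tumours, not called against the epithelial line (0.23 ± 0.22, limma adjusted p = 0.409) and 2.6-fold below the fibroblastic line (0.000199). Under a further quantile normalisation Vegfa passed against the epithelial line too (0.61, limma adjusted p = 0.0455). The second Vegfa probe set placed the tumours above both lines, by 0.55 and 0.38. Vegfb was 6.97 to 7.28, 6.45-fold below the fibroblastic line, and Angpt1, at 3.54 to 3.82, was 2.68-fold below it. Pgf, at 6.53 to 6.99, passed against neither line, and passed against the epithelial line after centring (0.66, adjusted p = 0.0238). Angpt2 lay above every culture array, at 5.33, 6.41, 5.07 and 5.87 against 3.99 to 4.61, by 2.4-fold and 2.71-fold (limma adjusted p = 0.00466 and 0.000999). The call against the epithelial line ended when the arrays were quantile normalised again (0.87, adjusted p = 0.0531).

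Vegfc, Nrp1, Aqp1 and Klf2 lay between the lines in the tumours, called above the epithelial and below the fibroblastic line. Vegfc read 7.88, 7.5, 7.15 and 7.95, 6.8-fold above the first and 7.43-fold below the second. Nrp1 read 7.09, 7.89, 7.55 and 8.20, 14.1-fold above and 3.93-fold below. For Aqp1 the folds were 7.03 and 3.22, and for Klf2 3.72 and 5.09. The second probe set of Aqp1 put the tumours level with the fibroblastic line (0.33, not called), and probe sets of Klf2 disagreed. Nrp2, at 7.42, 8.04, 7.87 and 7.65, was 2.02-fold below the epithelial and 10-fold below the fibroblastic line.

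The receptor partners and remaining genes differed from the endothelial ones. Ramp2, at 8.13 to 9.33 in tumours, lay below the epithelial line (-1.37 ± 0.38, limma adjusted p = 0.0121), but not when epithelial array 2 was left out (0.055). Ramp3, at 5.09 to 6.15, was 2.23-fold above the epithelial line (0.0199), but not when either tumour 4 or epithelial array 1 was left out (up to 0.0817). Esm1 read 6.52, 6.47, 6.55 and 7.55, 7.9-fold above the epithelial line (0.000145) and level with the fibroblastic line (-0.08 ± 0.35), so the values of the co-culture arrays exceeded every tumour. Egfl7, an extracellular matrix protein secreted by endothelium, exceeded the epithelial line by 0.71 (limma adjusted p = 0.046), a call lost in 8 of the fits that left out an array. Klf4 passed against neither line.

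The tumours differed in some of these genes and not in others. Of the 17 genes above both lines, 12 varied by at most 1 log2 unit over the 4 tumours and 5 by more, namely Lyve1 (2.73), Kdr (1.59), Stab2 (1.56), Angpt2 (1.34) and Emcn (1.11). Esam varied by 0.11, Cldn5 by 0.22, Sox18 by 0.23 and Eng by 0.26. In 7 of the 17, which were Kdr, Vwf, Emcn, Lyve1, Calcrl, Stab1 and Stab2, tumours 2 and 3 both lay below tumours 1 and 4, and over all genes this order held in 20.6%. Angpt2 had another order, with tumour 2 highest.

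Hepatocyte genes also put tumours 2 and 3 below 1 and 4, with a mean over 12 genes of 12.95, 5.56, 11.44 and 13.15 in tumours 1 to 4. The part of the surrounding liver in the values was not tested. With tumour 2 as the only tumour, the measured log2 differences from the epithelial and fibroblastic lines were 0.67 and 0.80 for Calcrl. For Stab2 they were 0.30 and 0.60. All 4 tumours gave 1.09 and 1.22 for Calcrl and 1.09 and 1.39 for Stab2. With tumours 2 and 3 as the only tumours, 16 members were called above both lines. Stab2 was not called against the epithelial line there (0.52, limma adjusted p = 0.098).

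**Figure D5:**
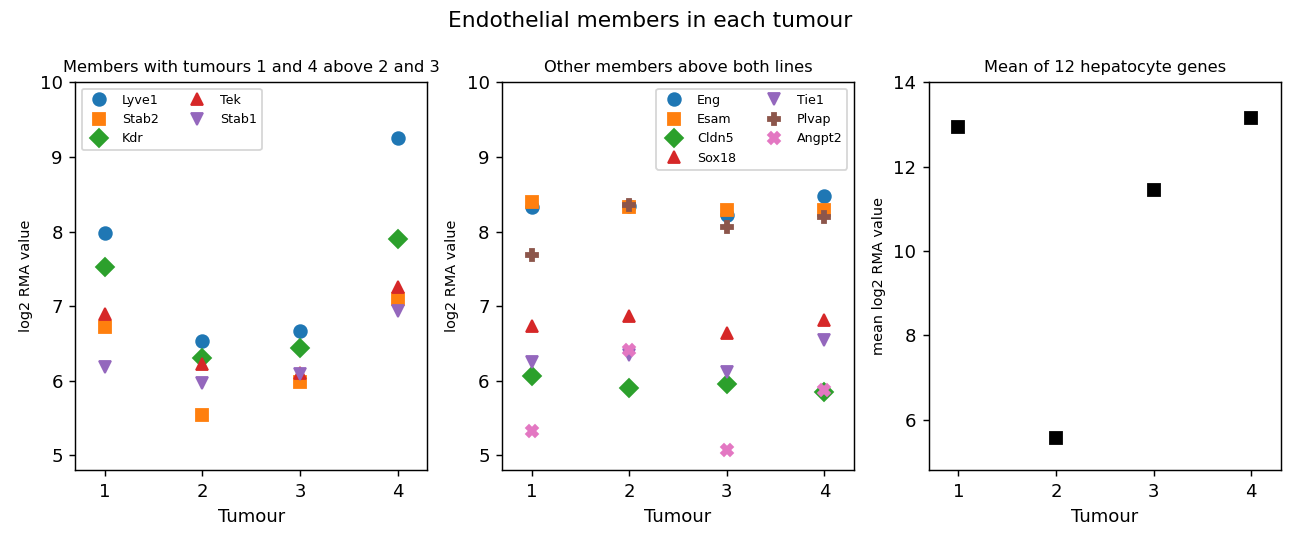
Points are log2 RMA values in each of the 4 tumours for 5 genes in which tumours 1 and 4 exceed tumours 2 and 3 (left), for 7 other genes above both lines (middle), and for the mean of 12 hepatocyte genes (right). Lyve1, Kdr and Stab2 are highest in tumours 4 and 1, while Eng, Esam, Cldn5 and Sox18 are nearly level and the hepatocyte mean is lowest in tumour 2, at 5.56.

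Among other genes of the vessel wall, most endothelial ones were higher in the tumours than in each line taken alone. Most mural cell genes were higher than in the epithelial line, and fewer were higher than in the fibroblastic line. Of 48 further endothelial genes, 30 rose and 7 fell in tumours against the epithelial line, 29 and 7 against the fibroblastic line, and 21 were above both, where 18.9% and 33.2%, 27.3% and 33.5%, and 12% of all genes were. Those above both included the vessel genes Cd93, Clec14a, Ptprb and Dll4. Among called genes, the largest differences from the epithelial line were S1pr1, a sphingosine phosphate receptor (4.73), and Vcam1, a leukocyte adhesion molecule (4.27). Edn1 (-1.64) and Jag2 (-1.40) were the lowest called. Against the fibroblastic line they were Sox7 (5.08) and Hhex (3.95), with Unc5b (-2.69) and Mcam (-2.42) lowest. Hhex, which hepatocytes also express, read 9.51, 6.12, 6.87 and 9.78 in tumours 1 to 4, in the same order as the hepatocyte mean given above, and the part of liver in it was not tested. Sox7 was also 6.0 higher in the epithelial than in the fibroblastic line, and S1pr1 was lower there (-4.81), so both genes differ between the lines as well. Between the lines 9 of the 48 were called higher and 10 lower in the epithelial line, with Edn1 at 3.18 and Pdpn at -5.15.

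Of 21 mural cell genes, 11 were lower in the epithelial than in the fibroblastic line and none higher, led by the contractile genes Tagln (-7.18) and Mylk (-6.62). Over all genes 16.6% were lower and 20.9% higher. Tagln, Acta2 and Pdgfrb of this list are also among the 12 fibroblast genes, so mural cells and fibroblasts cannot be told apart by them. In the tumours 15 exceeded the epithelial line and none was lower, led by Tagln (5.72) and Rgs5 (4.49), where 18.9% of all genes were higher and 33.2% lower. Against the fibroblastic line 5 were higher, led by the pericyte gene Rgs5 (4.83) and by Anpep (2.83), and 9 were lower, led by Pdgfrb (-3.54) and Cnn1 (-3.53). Over all genes 27.3% were higher and 33.5% lower, 60.9% in all, and the 14 of 21 called are near that share. Rgs5, Notch3, Anpep, Heyl and Ndufa4l2, 5 of the 21, were above both lines, as were 12% of all genes.

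Other angiogenic factors and inhibitors were mixed. Between the lines, the epithelial one had 5 of 33 genes called higher and 14 called lower, led by the chemokines Cxcl1 (4.3) and Cxcl10 (3.6), and by Slit2 (-6.90) and the protease Adamts1 (-6.38). Over all genes 20.9% were higher and 16.6% lower, 37.4% in all. Against the epithelial line, 13 rose and 5 fell in the tumours, led by Serpinf1, which encodes an inhibitor of angiogenesis (6.70), by Ptn (4.49), and by Cxcl1 (-4.11) and Sema3f (-2.48). The 18 of 33 called are near the share of all genes, 52.1%, with 18.9% higher and 33.2% lower. Against the fibroblastic line 9 were higher and 11 lower, a share near the 60.9% of all genes, led by Cxcl10 (3.14), Ang (2.53), Slit2 (-6.05) and Adamts1 (-4.19). Mdk, Ang, Thbs2, Serpinf1 and Vash1, 5 of the 33, were above both lines, as were 12% of all genes. Ang, which the liver secretes, read 11.49, 6.44, 9.21 and 11.9 in tumours 1 to 4, in the same order as the hepatocyte mean (12.95, 5.56, 11.44 and 13.15), and tumour 2 lay within the 6.03 to 7.72 of the lines. The part of liver in it was not tested. In the array labelled epithelial co-culture 9 of the 33 were called higher than in the epithelial line, against 4.87% of all genes. Against the fibroblastic line 4 were higher and 4 lower in this array, where 11% of all genes were called. The array also carries fibroblast markers, so a change within epithelial cells and RNA of fibroblasts cannot be told apart. Macrophage and lymphocyte genes were high in the same tumours, and their part in Cxcl10 and Vcam1 was not tested.

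Among 8 regulators of the hypoxia response, Egln3, a prolyl hydroxylase of HIF, was 4.01 higher in the epithelial than in the fibroblastic line and 3.32 higher in the tumours than in the fibroblastic line. Vhl, which marks HIF for degradation, was lower than in the fibroblastic line by the test, at -1.02 in the epithelial line and -1.21 in the tumours. Epas1, the HIF subunit typical of endothelium, was 1.92 higher in the tumours than in the fibroblastic line. Arnt, their partner, was above both lines in the tumours, by 0.75 and 1.28, and Egln1 was lower than in the epithelial line (-0.97). In all, 3 were higher and 1 lower between the lines, 1 higher and 2 lower in tumours against the epithelial line, and 3 and 2 against the fibroblastic line. Over all genes 37.4%, 52.1% and 60.9% were called in these comparisons, and the 5 of 8 in the last is near the share of all genes.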

How the data were processed

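The authors deposited expression values per probe set, computed by RMA per the submitters' processing notes. The deposited values ran from 2.94 to 14.69 and were taken as log2. The version of RMA was not given in the sources used here, nor was the set of arrays normalised together. Per the labels' protocols, Trizol RNA was made into biotinylated cRNA. Of 31099 probe sets, 57 controls were left out, and 20826 naming a single gene gave 14217 genes, 4525 of them with several probe sets (14 of the members). A probe set's level was compared only with itself.

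Tests used limma 3.58.1 in R 4.3.3 (lmFit, eBayes, Benjamini-Hochberg over all genes). The culture fit held 9 arrays and the tumour fit 11. Statmod 1.5.0 served the replicate block. Tables came from pandas 2.3.3 and numpy 2.4.6 under Python 3.11.15, and plots from matplotlib 3.10.9. The steps were tested on simulated data, with 100 genes changed by 1 and 100 by 2 log2 units. Comparisons of replicated groups recovered 54 to 62 of the first and 85 to 92 of the second. The epithelial and fibroblastic co-culture arrays against their lines recovered 7 each of the first, and 54 and 64 of the second. A gene not called in co-culture may therefore have changed.

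The members and lists were chosen with earlier results of these data known. All members are named. Of each other list, the 2 called genes with the largest difference in each direction are named for each comparison of replicated groups. The other names were chosen after their values were seen. The comparisons of co-culture arrays with both lines, their difference in response, and the fit with fibroblastic arrays 1 and 3 alone were added after seeing the data. Depth has no equivalent on arrays, and the number of arrays limits the precision.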

Additional observations from a re-analysis of the deposited data

Results flagged for a closer look

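Within the groups of 4 arrays, 2 of the 72 tests of a member for a sample far from the others met the limit, fewer than the 1 in 20 that chance gives. Esm1 was 7.55 in tumour 4 and 6.47 to 6.55 in the other tumours. Ramp3 was 5.09 in tumour 1 and 5.97 to 6.15 in the other tumours.

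In 4 genes the difference between the array labelled epithelial co-culture and its line differed from that between the array labelled fibroblastic co-culture and its line, by limma's test of the difference itself, which called 8.43% of all genes. The log2 differences of responses, epithelial minus fibroblastic, were 5.30 for Vegfc (adjusted p = 8.45e-05), 6.05 for Nrp1 (0.000416), 5.53 for Aqp1 (0.00316) and 5.75 for Klf2 (0.00229). The lines alone, epithelial minus fibroblastic, differed in these genes by -5.66, -5.80, -4.50 and -4.24, and the 2 co-culture arrays correlated at 0.983 over all genes. Unequal responses and the starting difference of the lines cannot be told apart in these genes. Over its line, the array labelled epithelial co-culture was higher by 4.37 on another Klf2 probe set. Further Klf2 probe sets gave 0.24, 0.06 and 0.46 there, none called.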

How the results depend on the processing

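Every alternative named at the start was run. Besides a fit that left out 1 array, given here as a range, the counts of members called moved by over 1.5 times where the lowest 0.25 of genes by mean value was left out, which kept 20 of the 36 members: 13 called in tumours against the epithelial line (11 higher), 11 against the fibroblastic line (4 higher and 7 lower, where all 36 gave 17 and 8) and 4 above both. With each array left out in turn, the counts ranged from 11 to 12 between the lines, 24 to 28 and 25 to 26 for the tumours against the epithelial and fibroblastic lines, 16 to 18 for tumours above both, 7 to 7 and 5 to 8 for the epithelial and fibroblastic co-culture arrays against their lines, and 3 to 4 and 2 to 3 for these arrays above both. The 5, against 8 with all arrays, came without epithelial array 3. Same-numbered arrays of different groups correlated at -0.148 to 0.143 in their deviations, and the other pairs at -0.194 to 0.196. The main fits therefore did not pair samples by number, though this check cannot exclude that same-numbered arrays share an origin. With the replicate block, 11, 27, 25, 7 and 7 members were called in the 5 comparisons, and the single change was Angpt1 in the fibroblastic co-culture array (-1.55, limma adjusted p = 0.0501). Of the single-gene results, 1515 of those that left out an array kept direction and call, 24 lost and 9 gained a call. Of other alternatives 1810 kept both, 32 lost and 20 gained a call and 2 turned. Of other probe sets 65 kept both, 10 lost and 6 gained a call and 14 turned. The signs that turned with another probe set were Vegfa (0.38) and Flt1 (1.12) in tumours against the fibroblastic line, Nrp2 (0.07 between the lines, 0.11 and 0.18 in tumours, 0.10 in the fibroblastic co-culture array), Sox17 (1.62 against both lines), Aqp1 (0.33 against the fibroblastic line), Klf2 (0.13 and 0.09 between the lines, -0.69 and 0.31 in tumours) and Prox1 (1.25 against the epithelial line). The mean of the probe sets turned Sox17 (0.35 and 0.52). Their cause was not tested. A 2-fold limit left 3310, 3465 and 4343 of all genes called between the lines and in tumours against the epithelial and fibroblastic lines, tumours 2 and 3 alone left 4549 against the epithelial line, tumour 2 alone left 1958 and 3912, and a single fit of all arrays called 1743 in the epithelial co-culture array. With tumour 2 alone the lists gave, against the epithelial and fibroblastic lines, 8 and 10 other angiogenic factors, 14 and 22 further endothelial genes, 5 and 9 mural genes, and 0 and 3 hypoxia regulators. A 2-fold limit gave 24 and 23 further endothelial genes, and 2 hypoxia regulators between the lines and 0 against the epithelial line.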
